A study of Mus musculus with 4 samples.

Results

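The genes described here build, cross-link, cut or receive signals from the extracellular matrix of the liver, or mark the hepatic stellate cell and its mesenchymal relatives. They were chosen by name: 5 fibrillar collagen chains, 4 other interstitial collagen chains, 8 basement membrane and multiplexin genes, 3 glycoprotein and elastic fibre genes, 4 matricellular genes, 4 proteoglycans, 3 lysyl oxidases, 5 proteases, 3 TIMPs, 1 ligand with 2 receptors, and 5 stellate and mesenchymal markers. The choice was made with earlier results of these data known, so the shares of members called are descriptions only. All 47 were found among the 27027 entries of the count table. The RNA came from livers of male C57BL/6J mice aged 9 to 12 weeks that were fasted for 10 h and then injected intraperitoneally with 0.9% NaCl (control) or with acetaminophen (APAP) at 300 mg/kg, a dose that injures the hepatocytes around the central vein. Livers were taken at 24 h or 48 h. RNA of 6 mice was pooled for each control library and RNA of 7 mice for each APAP library, and each pool gave 1 library of 3′ mRNA sequencing (MACE, Massive Analysis of cDNA Ends). No mouse carried a transgene or a deletion. The libraries held 4859661 (control 24 h), 5191990 (control 48 h), 5698778 (APAP 24 h) and 4938164 (APAP 48 h) reads assigned to genes.

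In the uninjured liver, stellate cells lie between the sinusoidal endothelium and the hepatocytes, store vitamin A as retinyl esters and make little fibrillar collagen. After injury, platelets, macrophages and dying hepatocytes release signals such as TGF-beta and PDGF, and stellate cells turn into contractile myofibroblasts that express smooth muscle actin and secrete collagens, TIMPs and lysyl oxidases. Early after damage the wound is bridged by a provisional matrix rich in fibronectin, which plasma delivers from hepatocytes and which local cells add to. Metalloproteinases later cut the matrix, and TIMPs inhibit them. Stellate cells are a small part of the cells of a whole liver sample.

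A fold is the ratio of normalized reads, that is, of reads divided by the library's size factor from all genes, and the interval in parentheses after a fold is its 95% exact counting interval. With 1 library per group, conditions could not be tested at a single time, and no test over both times was run. The intervals cover counting error only, not the differences between mice or between pools. Genes were called at a difference of 2-fold or more when 1 of the libraries compared held 20 reads or more; for this call, a count under 3 reads was set to 3. Levels are read counts of 1 mRNA end and are compared between libraries, not between genes. Values in RPM are reads scaled to a common library total. In bulk tissue, fewer cells of a type and less RNA per cell cannot be told apart.

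At 24 h, 10 of the 37 members with enough reads were at least 2-fold higher with APAP than in the control, against 6.17% of the 10892 genes tested, and 1 member, Lum, was lower, against 4.93%. At 48 h, 15 of 39 were higher, against 5.64% of 10831 genes, and 1, Col15a1, was lower, against 5.31%. At the 5-fold size that the study used, 4 members were higher at 24 h (Tnc, Thbs1, Mmp12 and Timp1; 1.18% of all genes) and 4 at 48 h (Col5a2, Mmp12, Timp1 and Acta2; 0.646%). No member with enough reads was 5-fold lower at either time, against 0.643% and 0.84% of all genes. Only Col4a1, Mmp12, Timp1 and Acta2 were called higher at both times. By calls alone, Nid1, Fn1, Eln, Tnc, Thbs1 and Adamts1 were called higher at 24 h alone, and Col1a1, Col1a2, Col3a1, Col5a1, Col5a2, Col4a2, Spp1, Loxl1, Loxl2, Des and Vim at 48 h alone. Being called at 1 time does not show a difference between the times, which is given below as the ratio of the folds.

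Some calls rest on a low control count. Of the 10 members higher at 24 h, 6 had fewer than 20 reads in the control and entered through the APAP library (Eln, Tnc, Thbs1, Mmp12, Adamts1 and Timp1), as did 7 of the 15 at 48 h (Col5a1, Col5a2, Loxl1, Loxl2, Mmp12, Timp1 and Acta2). Where the mean over the 4 libraries reached 20 normalized reads, 5 of 30 members were higher at 24 h (3.94% of 10032 genes) and 12 of 31 at 48 h (3.87% of 10022 genes). The members' median log2 fold, with a pseudocount of 1, was 0.56 at both times, against 0.03 and -0.01 over all genes tested. It was also above 0 between the control pools, at 0.26 for 48 h over 24 h against 0.02 over all genes, although there no member was called higher (1.89% of 10157 genes) and only Acta2 lower (1.47%).

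**Figure D1:**
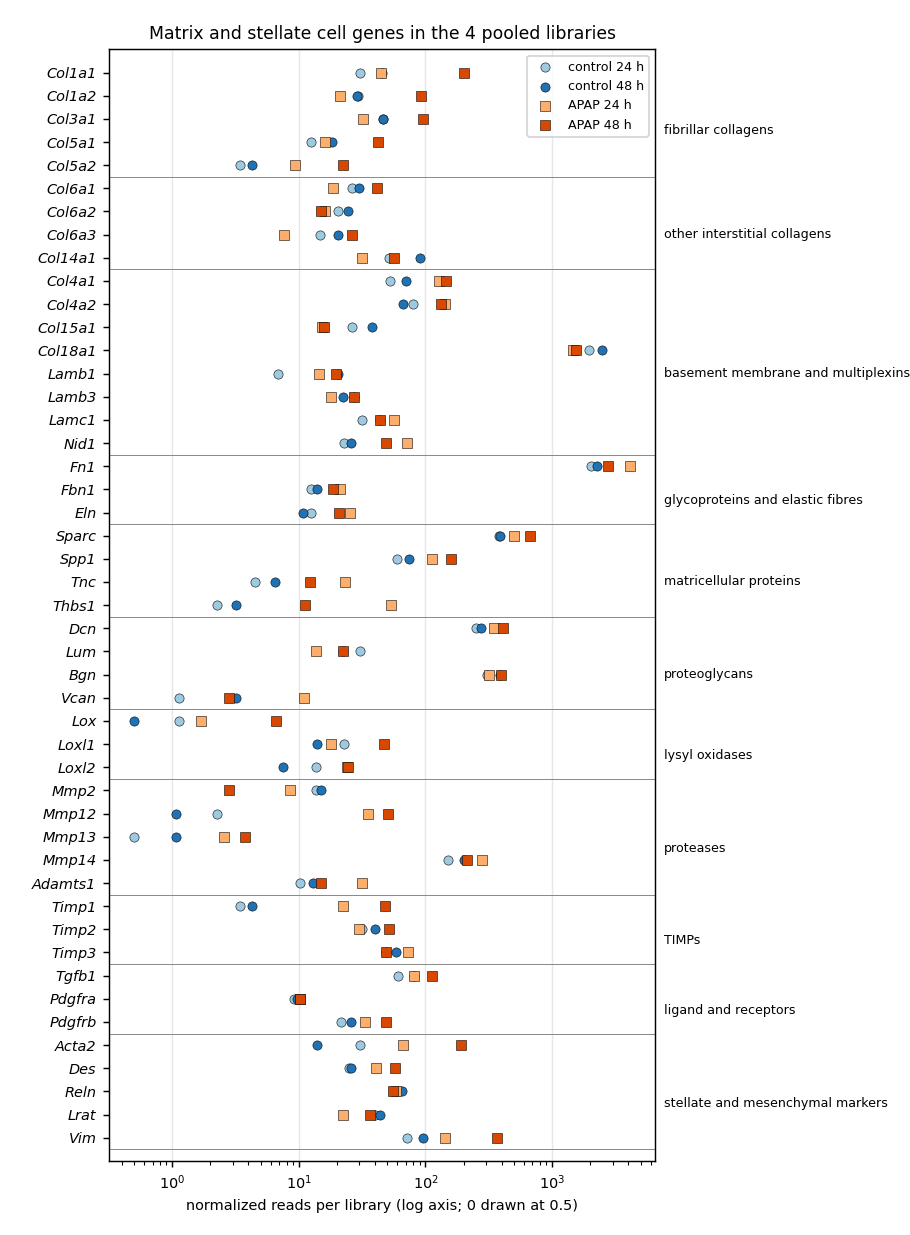
Normalized reads (log axis) of the 47 genes, grouped by role, in the control libraries (circles) and the APAP libraries (squares); each point is 1 pooled library and a count of 0 is drawn at 0.5. The APAP 48 h square stands far to the right for Col1a1, Col1a2, Vim and Acta2, while the APAP 24 h square is the rightmost for Fn1, Nid1, Tnc, Thbs1 and Adamts1.

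The fibrillar collagens form the tensile fibres of scar tissue. All 5 were called higher at 48 h, against 5.64% of all genes, and none of the 3 with enough reads at 24 h, against 6.17%. Col1a1 and Col1a2 (chr11:94936224-94953042 and chr6:4504814-4541544, GRCm38) encode the chains of type I collagen, the main collagen of fibrous scar. Col1a1 had 27 reads at 24 h and 42 at 48 h in the control libraries and 52 at 24 h and 216 at 48 h after APAP. Only the APAP 48 h library stood out: at 24 h the fold was 1.44 (0.890 to 2.39), and at 48 h it reached 4.50 (3.22 to 6.42). Col1a2 had 26 reads at 24 h and 27 at 48 h in the control libraries, and 25 at 24 h and 99 at 48 h after APAP. The 3 other libraries lay within 2 reads of one another, so that the fold at 24 h was 0.720 (0.399 to 1.30), with 3.21 (2.08 to 5.11) at 48 h. Col3a1 (chr1:45311538-45349706), the single chain of type III collagen, which is laid down with type I, showed 41 and 43 reads in the control libraries, 38 at 24 h with APAP and 102 at 48 h. Its folds were 0.694 (0.435 to 1.11) and 2.07 (1.44 to 3.04), with the highest count again in the APAP 48 h library.

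Type V collagen is a minor partner that starts type I fibrils and limits their width. Col5a1 had 11 reads at 24 h and 17 at 48 h in the control libraries, and 19 at 24 h and 45 at 48 h after APAP, a fold of 2.31 (1.30 to 4.31) at 48 h with too few reads for a call at 24 h. Reads of Col5a2 numbered 3 and 4 in the controls, 11 at 24 h and 24 at 48 h after APAP, and its fold was 5.25 (1.80 to 20.8) at 48 h and, under the read minimum, 2.75 (0.726 to 15.3) at 24 h. The wide interval reflects the 4 control reads. The table lists Col5a2 together with an overlapping gene, so its reads may be shared. Together, the 5 chains took 22.2 and 25.6 RPM in the controls, 25.4 RPM at 24 h and 98.4 RPM at 48 h after APAP. For each Col1a2 read there were 1.04 (0.583 to 1.85) and 1.56 (0.937 to 2.62) Col1a1 reads in the controls and 2.08 (1.27 to 3.50) and 2.18 (1.71 to 2.80) with APAP. At each time the intervals with and without APAP overlap.

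The other interstitial collagens, which link fibrils to cells and to one another, had no call against the controls. Neither of the 2 with enough reads at 24 h was called, against 6.17% of all genes higher and 4.93% lower. None of the 4 was called at 48 h, against 5.64% and 5.31%. Col14a1, which sits on fibril surfaces, had 45 reads at 24 h and 84 at 48 h in the control libraries, and 37 at 24 h and 60 at 48 h after APAP. Its folds were 0.616 (0.388 to 0.973) at 24 h and 0.625 (0.441 to 0.880) at 48 h, with both intervals under 1, but the control at 48 h was 1.76 (1.21 to 2.59) times that at 24 h. Against the control of the other time the folds were 0.350, a lower call, at 24 h and 1.10 at 48 h. The beaded filament chains of type VI collagen gave 23, 28, 22 and 44 reads for Col6a1 in the order control 24 h, control 48 h, APAP 24 h and APAP 48 h. In the same order, Col6a2 gave 18, 23, 19 and 16 reads, and Col6a3 gave 13, 19, 9 and 28. At 24 h their folds were 0.717 (0.381 to 1.35), 0.791 (0.393 to 1.60) and 0.519 (0.196 to 1.31), the last 2 under the read minimum, and at 48 h 1.37 (0.837 to 2.29), 0.608 (0.300 to 1.20) and 1.29 (0.695 to 2.44).

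Basement membrane genes split. Type IV collagen is the sheet-forming collagen of basement membranes, and Col4a1 and Col4a2 lie head to head on chromosome 8. Col4a1 had 46 reads at 24 h and 65 at 48 h in the control libraries and 149 at 24 h and 155 at 48 h after APAP. Both APAP libraries were above both controls, by 2.43 (1.73 to 3.46) at 24 h and 2.09 (1.55 to 2.83) at 48 h. Col4a2 had 70 reads at 24 h and 62 at 48 h in the control libraries, and 167 at 24 h and 142 at 48 h after APAP, also above both controls, and its folds were 1.79 (1.34 to 2.40) and 2.00 (1.48 to 2.74). Both stood close to the threshold, and against the control of the other time Col4a1 at 24 h came to 1.82 and Col4a2 at 48 h to 1.67, while Col4a2 at 24 h came to 2.14. Nid1 (chr13:13437551-13512269), or nidogen, which ties laminin to type IV collagen, had 20 reads at 24 h and 24 at 48 h in the control libraries and 84 at 24 h and 52 at 48 h after APAP. The APAP libraries were again both above the controls, with the 24 h library highest, at folds of 3.15 (1.91 to 5.41) and 1.89 (1.15 to 3.21); against the 24 h control the value at 48 h was 2.14.

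The multiplexins Col15a1 and Col18a1 carry heparan or chondroitin sulfate and stand at the border of basement membranes. Col18a1, which hepatocytes also express and whose end is cleaved off as endostatin, had 1707 reads at 24 h and 2292 at 48 h in the control libraries and 1705 at 24 h and 1638 at 48 h after APAP. It was lower with APAP at both times, at 0.748 (0.699 to 0.801) and 0.625 (0.586 to 0.666) of the control, and neither passed the 2-fold size; the control pools differed by 1.27 (1.19 to 1.35). Col15a1 gave 23 and 35 reads in the controls and 18 and 17 with APAP, so that its folds were 0.586 (0.298 to 1.14) and 0.425 (0.223 to 0.779). Its call at 48 h was lost against the control of the other time (0.610) and when library totals replaced the size factors (0.511). The laminin chains, which build the sheet that cells bind, were not called against the control of the same time. Lamc1 had 28 reads at 24 h and 41 at 48 h in the control libraries and 66 at 24 h and 47 at 48 h after APAP, at folds of 1.77 (1.12 to 2.85) and 1.0 (0.645 to 1.56). Lamb3 stayed between 21 and 29 reads and Lamb1 between 6 and 21, where Lamb1 had its lowest count in the control at 24 h and 19 reads in the control at 48 h. The folds of Lamb1 were 2.12 at 24 h, under the read minimum, and 0.967 at 48 h. Against the control of the other time they were 0.711, under the read minimum, and 2.89, called higher.

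**Figure D2:**
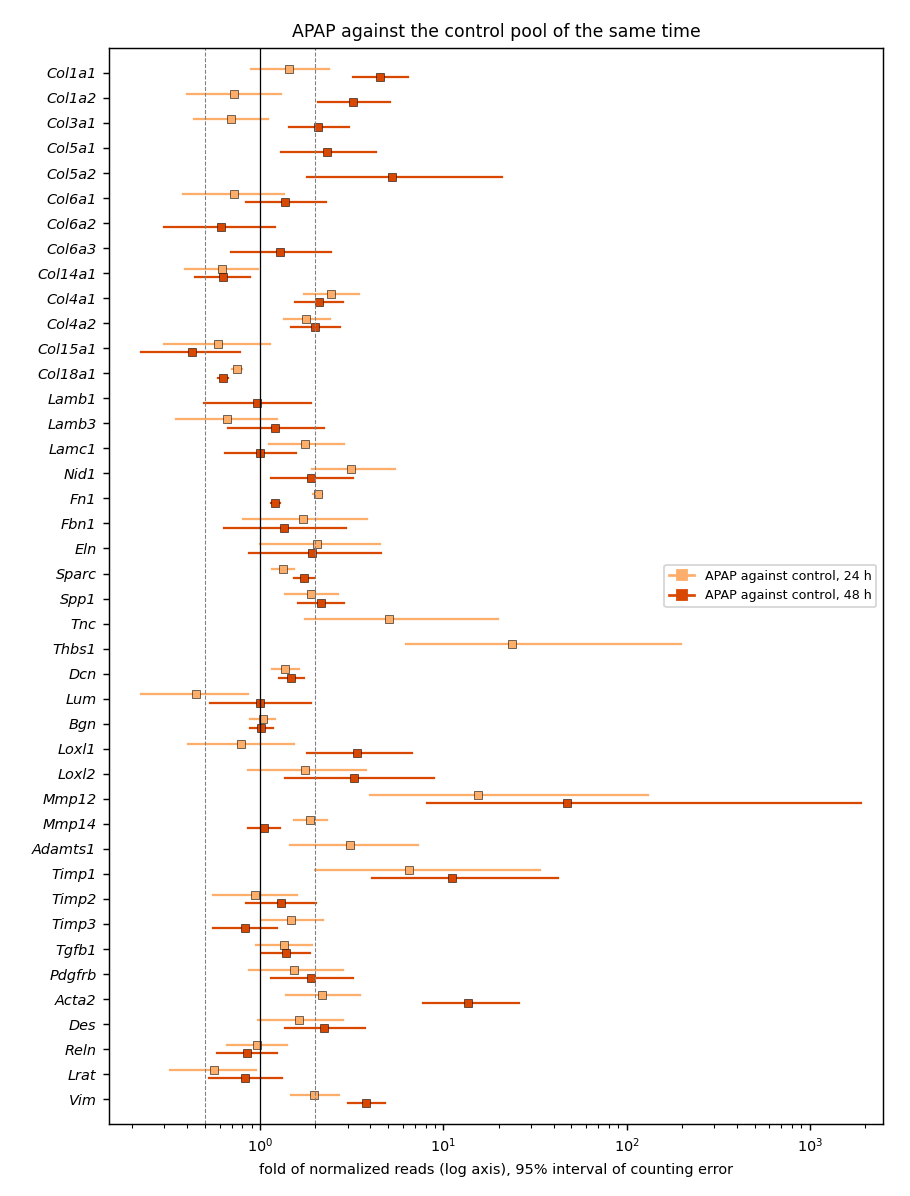
Fold of normalized reads, APAP against the control of the same time (log axis), with 95% counting intervals, for the 42 genes that reached 20 reads in at least 1 library; a fold is drawn where 1 of the libraries compared had 20 reads, and dashed lines mark 2-fold. Col1a1, Col1a2 and Col3a1 lie near 1 at 24 h (pale) and, with Col5a1 and Col5a2, right of 2 at 48 h (dark), and Mmp12 at 48 h, with 1 control read, has the widest interval.

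Fn1 (chr1:71585520-71653200) encodes fibronectin, the adhesive glycoprotein of plasma and of provisional matrix, and hepatocytes are its main source in plasma. With 1769 reads at 24 h and 2127 at 48 h in the control libraries and 4872 at 24 h and 2937 at 48 h after APAP, it gave the most reads of the 47 genes, but for Col18a1 in the control at 48 h. The APAP 24 h library was the highest and the APAP 48 h library the next, at folds of 2.06 (1.95 to 2.18) and 1.21 (1.14 to 1.28). The fold at 24 h came to 1.82 against the control of the other time. Fn1 and Col18a1 together held 64.7% and 65.5% of the members' reads in the controls, 64.8% at 24 h and 51.0% at 48 h after APAP, so sums over the members mostly follow these genes. Eln, the elastin of elastic fibres, had 11 reads at 24 h and 10 at 48 h in the control libraries and 30 at 24 h and 22 at 48 h after APAP, at folds of 2.04 (0.995 to 4.52) and 1.92 (0.874 to 4.55). Its call at 24 h rests on few reads, as the interval reaches below 1. Fbn1, the fibrillin of microfibrils, had 11 and 13 reads in the controls and 25 and 20 with APAP, with no call.

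The matricellular proteins tune how cells hold the matrix without bearing load, and 2 of the 4 were called higher at 24 h, against 6.17% of all genes. Thbs1 (chr2:118111876-118127133) encodes thrombospondin, a platelet and matrix protein that can activate latent TGF-beta. It had 2 reads at 24 h and 3 at 48 h in the control libraries, and 63 at 24 h and 12 at 48 h after APAP. The APAP 24 h library stood alone, with a fold of 23.6 (6.27 to 199) at 24 h. The interval is wide because the control held 2 reads. At 48 h Thbs1 was under the read minimum, at 3.50 (0.944 to 19.3). Tnc (chr4:63959785-64047015), the tenascin of provisional matrix, had 4 and 6 control reads, 27 at 24 h and 13 at 48 h with APAP. It followed the same order of libraries, with a fold of 5.06 (1.76 to 19.9) at 24 h and, under the read minimum, 1.89 (0.672 to 6.08) at 48 h. Against the control of the other time, Tnc at 24 h came to 3.57, under the 5-fold size.

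Osteopontin (Spp1, chr5:104435118-104441050) and osteonectin (Sparc) were instead highest at 48 h. Spp1, which macrophages, cholangiocytes and activated stellate cells secrete, had 52 reads at 24 h and 69 at 48 h in the control libraries and 132 at 24 h and 169 at 48 h after APAP, at folds of 1.90 (1.37 to 2.67) and 2.14 (1.61 to 2.88). Its 3′ end overlaps a second annotated gene with which its reads are pooled. Sparc, a collagen-binding protein that stellate and endothelial cells make, had 333 reads at 24 h and 360 at 48 h in the control libraries and 592 at 24 h and 712 at 48 h after APAP. The folds of 1.33 (1.16 to 1.53) and 1.73 (1.52 to 1.97) were under 2, and the control counts differed little, by 1.02 (0.876 to 1.19).

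Of the small leucine-rich proteoglycans, which bind collagen fibrils and control their spacing, none was called higher, against 6.17% of all genes at 24 h and 5.64% at 48 h. Dcn (decorin) had 222 reads at 24 h and 257 at 48 h in the control libraries and 406 at 24 h and 435 at 48 h after APAP, at folds of 1.37 (1.16 to 1.62) and 1.48 (1.27 to 1.73). Bgn (biglycan) had folds of 1.03 (0.878 to 1.21) and 1.02 (0.880 to 1.17), and its reads lay between 269 and 418. Lum (lumican) had 27 reads at 24 h and 21 at 48 h in the control libraries and 16 at 24 h and 24 at 48 h after APAP. Its fold of 0.444 (0.223 to 0.854) at 24 h passed the lower threshold and that of 0.999 (0.533 to 1.89) at 48 h did not. The 24 h call was lost against the control of the other time (0.605) and with library totals (0.505). Vcan, the large proteoglycan versican of provisional matrix, had 1 and 3 control reads, 13 at 24 h and 3 at 48 h with APAP, all under the read minimum.

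The lysyl oxidases cross-link collagen and elastin, which makes fibres stiff and hard to cut. Both members with enough reads were called higher at 48 h, against 5.64% of all genes, and neither at 24 h, against 6.17%. Loxl1 (chr9:58287738-58313186), needed for elastic fibres, had 20 reads at 24 h and 13 at 48 h in the control libraries and 21 at 24 h and 50 at 48 h after APAP. The APAP 24 h count lay beside the controls, and the folds were 0.787 (0.406 to 1.53) at 24 h and 3.36 (1.80 to 6.75) at 48 h. Its control level at 48 h was 0.613 (0.280 to 1.29) of that at 24 h, and against the 24 h control the fold at 48 h was 2.06. Loxl2 (chr14:69609068-69695834), which acts on type IV and fibrillar collagens, had 12 reads at 24 h and 7 at 48 h in the control libraries and 28 at 24 h and 26 at 48 h after APAP, with both APAP libraries above both controls at folds of 1.75 (0.861 to 3.77) and 3.25 (1.37 to 8.86). Against the control of the other time its call at 48 h was lost (1.79) and 1 at 24 h was gained (3.18). The last 300 bases of its transcripts resemble those of 73 other genes, so its counts are uncertain. Lox gave 1, 0, 2 and 7 reads in the order control 24 h, control 48 h, APAP 24 h and APAP 48 h, and no fold was read from it.

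**Figure D3:**
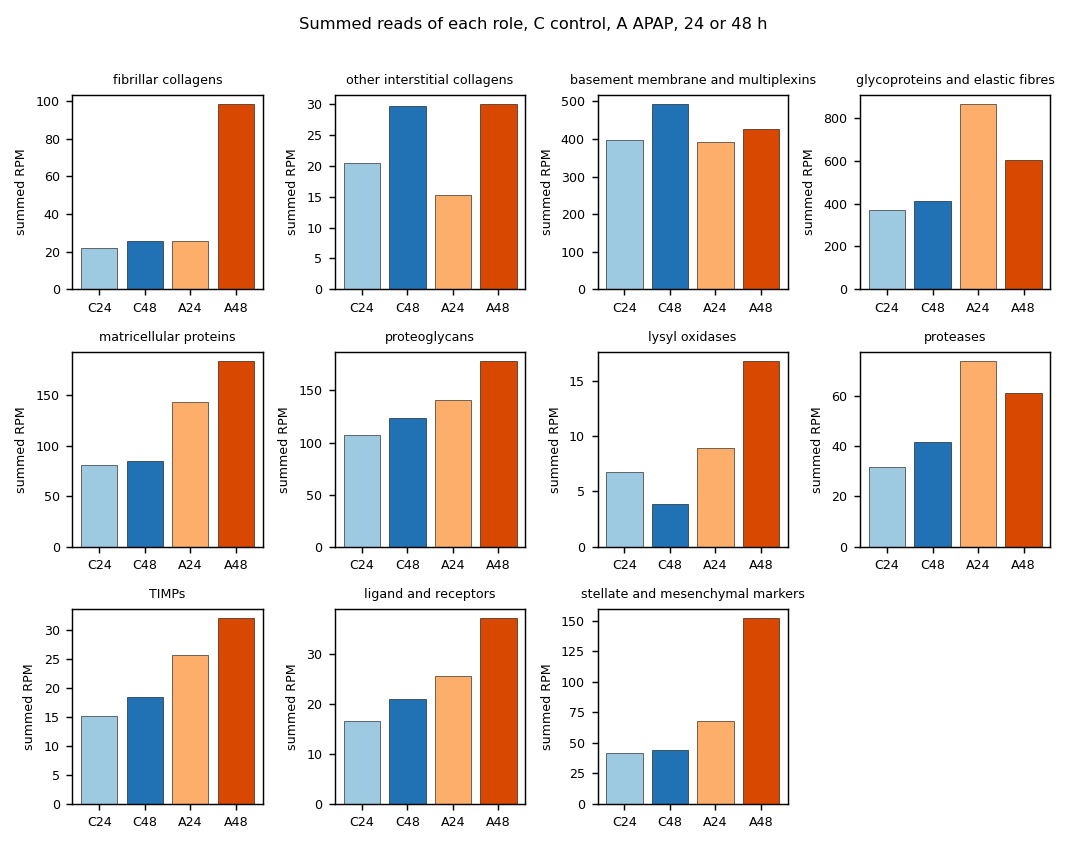
Summed reads scaled to library totals (RPM, linear axis from 0) of the genes of each role in the control (C) and APAP (A) libraries at 24 h and 48 h; each bar is 1 pooled library. The bar of APAP at 48 h is the tallest by far for the fibrillar collagens, at 98.4 RPM against 25.6 RPM in its control, and the bar of APAP at 24 h is the tallest for glycoproteins and elastic fibres, where Fn1 gives most reads, and for the proteases.

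Mmp12 and Timp1 were the only members at least 5-fold higher at both times. Mmp12 (chr9:7344381-7369499, plus strand) encodes the macrophage metalloelastase, which cuts elastin and other matrix proteins, and Timp1 (chrX:20870166-20874735, plus strand) the secreted inhibitor of most metalloproteinases, which activated stellate cells and other cells release. Mmp12 had 2 reads at 24 h and 1 at 48 h in the control libraries and 41 at 24 h and 54 at 48 h after APAP. It was near 0 in the controls and clearly present with APAP, at 15.4 (3.99 to 131) at 24 h and 47.2 (8.12 to 1899) at 48 h (32.6 and 22.3 against the control of the other time). Timp1 had 3 reads at 24 h and 4 at 48 h in the control libraries and 26 at 24 h and 51 at 48 h after APAP. Both APAP libraries were above both controls, and the one at 48 h was the higher, at folds of 6.49 (1.99 to 33.5) and 11.1 (4.10 to 42.5). The 250 bases before their starts, from RefSeq (GRCm38.p6), are shown because both genes passed 5-fold at both times; between the APAP libraries Timp1 was called higher at 48 h, at 2.16 (1.32 to 3.61), and Mmp12 was not, at 1.45 (0.948 to 2.23). Capitals mark matches on either strand to 5 short motifs, those named AP-1, TATA box, GC box, TEAD and SMAD, whose letters are spelled out after the sequences. No base lay in more than 1 match. RefSeq gives 2 starts for Mmp12, here chr9:7344147-7344396 and chr9:7347124-7347373, and 1 for Timp1, chrX:20869916-20870165, all on the plus strand.
Mmp12 start 1: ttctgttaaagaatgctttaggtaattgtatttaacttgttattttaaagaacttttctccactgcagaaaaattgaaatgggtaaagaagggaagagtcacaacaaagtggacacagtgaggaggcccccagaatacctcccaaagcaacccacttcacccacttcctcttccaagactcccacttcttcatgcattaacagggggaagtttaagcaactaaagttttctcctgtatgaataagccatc
Mmp12 start 2: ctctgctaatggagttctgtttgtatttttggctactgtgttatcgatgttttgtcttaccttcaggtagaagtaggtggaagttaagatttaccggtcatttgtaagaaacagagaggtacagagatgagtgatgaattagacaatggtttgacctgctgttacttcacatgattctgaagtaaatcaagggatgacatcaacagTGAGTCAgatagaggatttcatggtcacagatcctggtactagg
Timp1: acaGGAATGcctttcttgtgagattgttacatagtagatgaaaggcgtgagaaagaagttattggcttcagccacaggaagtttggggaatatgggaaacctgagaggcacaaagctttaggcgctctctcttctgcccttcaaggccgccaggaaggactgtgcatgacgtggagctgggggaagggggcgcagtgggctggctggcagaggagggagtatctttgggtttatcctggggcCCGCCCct

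The stretch before the first Mmp12 start held none of the 5 motifs, and that before the second held AP-1 letters beginning 44 bases before the start. Before Timp1 there was a GC box 8 bases and TEAD letters 247 bases from the start, both on the minus strand, and no AP-1 letters. Promoter windows, which reach 50 bases past the start, were at hand for 33 of the 47 genes (39 windows). The AP-1 letters (TGANTCA) were in 3 of these windows (7.69%), against 7.81% of all 32851 promoters. The TATA box (TATAAA) was in 20.5% of the members' windows, against 13.6% of all promoters. The GC box (GGGCGG) was found in 59.0%, against 35.7%. The TEAD letters (CATTCC) stood in 20.5%, against 14.7%. The SMAD letters (CAGACA) stood in 30.8% of the members' windows, against 21% of all. Such matches are descriptions of the letters and do not show that a factor binds.

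Of the other proteases, Adamts1 was the one called. Adamts1 (chr16:85793827-85803113), a secreted protease that cuts versican and other proteoglycans, had 9 reads at 24 h and 12 at 48 h in the control libraries and 37 at 24 h and 16 at 48 h after APAP. Only the APAP 24 h library stood apart, at 3.08 (1.46 to 7.26), and at 48 h the fold was 1.17 (0.518 to 2.70), under the read minimum. Mmp14, the membrane-bound collagenase that activates Mmp2, had 132 reads at 24 h and 188 at 48 h in the control libraries and 330 at 24 h and 226 at 48 h after APAP, at folds of 1.87 (1.53 to 2.31) and 1.05 (0.862 to 1.28). Its value at 24 h was just under the threshold, and part of its last 300 bases resembles 2 other genes. Mmp2, the gelatinase of stellate cells, had 12 and 14 control reads and 10 and 3 with APAP, with its lowest count in the APAP 48 h library. Its folds, 0.624 (0.242 to 1.58) and 0.187 (0.0345 to 0.671), were under the read minimum and not called, although the interval at 48 h lies wholly under 1. Mmp13, the collagenase, had at most 4 reads in a library.

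Timp2 and Timp3 did not share the pattern of Timp1. Timp2, which also helps Mmp14 to activate Mmp2, had 28 reads at 24 h and 37 at 48 h in the control libraries and 35 at 24 h and 55 at 48 h after APAP, at folds of 0.937 (0.554 to 1.60) and 1.30 (0.842 to 2.03). Timp3, the TIMP that stays bound to the matrix, had 43 reads at 24 h and 55 at 48 h in the control libraries and 85 at 24 h and 52 at 48 h after APAP, at 1.48 (1.01 to 2.19) and 0.827 (0.555 to 1.23). Timp2 was highest in the APAP 48 h library and Timp3 in the APAP 24 h library, neither by 2-fold.

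Neither of the 2 ligand and receptor genes with enough reads was called against the control of the same time. Over all genes, 6.17% were higher and 4.93% lower at 24 h, and 5.64% and 5.31% at 48 h. Tgfb1, the main fibrogenic cytokine of the liver, had 53 reads at 24 h and 76 at 48 h in the control libraries and 95 at 24 h and 120 at 48 h after APAP, at folds of 1.34 (0.95 to 1.92) and 1.38 (1.03 to 1.87). Pdgfrb, the receptor through which PDGF drives stellate cell growth and movement, had 19 reads at 24 h and 24 at 48 h in the control libraries and 39 at 24 h and 52 at 48 h after APAP. Both APAP libraries were above both controls, at folds of 1.54 (0.868 to 2.82) and 1.89 (1.15 to 3.21). Against the control of the other time, Pdgfrb was called higher at 48 h, at 2.26. Pdgfra, a receptor of fibroblasts and stellate cells, gave between 8 and 12 reads in the 4 libraries, under the read minimum.

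Among the stellate and mesenchymal markers, Acta2 was called higher at both times and Vim and Des at 48 h, while Lrat and Reln were not called. All 5 had enough reads at each time, and 1 was higher at 24 h and 3 at 48 h. Over all genes, 6.17% were higher at 24 h and 5.64% at 48 h. Acta2 (chr19:34241090-34255590), the smooth muscle actin of myofibroblasts, had 27 reads at 24 h and 13 at 48 h in the control libraries and 78 at 24 h and 202 at 48 h after APAP. Both APAP libraries were above both controls and the one at 48 h was the highest, at folds of 2.16 (1.38 to 3.49) and 13.6 (7.77 to 26). The control pools themselves differed, with the one at 48 h at 0.454 (0.215 to 0.911) of that at 24 h. Against the control of the other time the folds were 4.77 and 6.17, and against the sum of both controls 3.01 and 8.58, so Acta2 was called with each. Vim (chr2:13573927-13582826), the intermediate filament protein of mesenchymal cells and leukocytes, had 63 reads at 24 h and 90 at 48 h in the control libraries and 166 at 24 h and 389 at 48 h after APAP. Its folds were 1.97 (1.47 to 2.68) and 3.78 (3.0 to 4.81), again with the APAP 48 h library highest. Des (desmin), the filament of stellate and muscle cells, had 22 reads at 24 h and 24 at 48 h in the control libraries and 48 at 24 h and 61 at 48 h after APAP, at folds of 1.63 (0.968 to 2.84) and 2.22 (1.37 to 3.73).

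Lrat, the enzyme that makes the retinyl esters stored in quiescent stellate cells, had 35 reads at 24 h and 41 at 48 h in the control libraries and 26 at 24 h and 39 at 48 h after APAP. The APAP 24 h library was the lowest, at 0.557 (0.322 to 0.951) of its control, and at 48 h the fold was 0.832 (0.523 to 1.32). Reln, a secreted glycoprotein of stellate cells, had 54 reads at 24 h and 61 at 48 h in the control libraries and 69 at 24 h and 59 at 48 h after APAP, at folds of 0.957 (0.661 to 1.39) and 0.846 (0.581 to 1.23). Neither passed the 2-fold size at either time.

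A direct comparison of the APAP libraries, which are the same libraries as above, put 11 of 40 members higher at 48 h than at 24 h, against 2.53% of 11126 genes, and 2 lower, against 3.16%. Of the 11, Col5a1, Col5a2 and Col6a3 had fewer than 20 reads at 24 h and entered through the 48 h library; where the mean reached 20 normalized reads, 8 of 30 members were higher, against 1.42% of genes. The higher ones were all 5 fibrillar collagens, Col6a1, Col6a3, Loxl1, Timp1, Acta2 and Vim. The folds of 48 h over 24 h were 4.57 (3.36 to 6.32) for Col1a1, 4.36 (2.79 to 7.06) for Col1a2 and 2.95 (2.02 to 4.41) for Col3a1. For Col6a3 the value was 3.42 (1.57 to 8.25) and for Col6a1 2.20 (1.29 to 3.86), although neither was called against its control. The lower ones were Thbs1, at 0.210 (0.103 to 0.392), and Adamts1, at 0.476 (0.247 to 0.877).

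The ratio of the folds, 48 h over 24 h, compares each APAP library with its own control and uses all 4 counts. It was read where all 4 counts were above 3 and 1 reached 20, which left 38 members. Its interval was above 1 for 7 of these, against 9.3% of 11208 genes, and under 1 for 4, against 11.6%, a share close to the members' own. Those above 1 were Acta2, at 6.28 (2.94 to 13.9), Col1a2, at 4.45 (2.09 to 9.43), Loxl1, at 4.28 (1.66 to 11.1), Col1a1, at 3.12 (1.68 to 5.70), Col3a1, at 2.99 (1.63 to 5.48), Vim, at 1.91 (1.30 to 2.81), and Sparc, at 1.30 (1.07 to 1.57). Those under 1 were Fn1, at 0.585 (0.541 to 0.633), Timp3, at 0.558 (0.318 to 0.978), Mmp14, at 0.561 (0.420 to 0.750), and Col18a1, at 0.835 (0.761 to 0.917). Differences between the control pools enter this ratio, with control 48 h over 24 h at 0.454 (0.215 to 0.911) for Acta2, 0.613 (0.280 to 1.29) for Loxl1, 1.34 (1.07 to 1.69) for Mmp14, 1.27 (1.19 to 1.35) for Col18a1 and 1.13 (1.06 to 1.21) for Fn1. For the other genes called at 24 h alone, the intervals held 1, at 0.602 (0.285 to 1.27) for Nid1, 0.942 (0.302 to 2.97) for Eln, 0.375 (0.0671 to 1.94) for Tnc and 0.379 (0.117 to 1.22) for Adamts1. So did those of genes called at 48 h alone, at 1.12 (0.730 to 1.72) for Col4a2, 1.13 (0.718 to 1.76) for Spp1, 1.36 (0.641 to 2.87) for Des, 1.86 (0.566 to 6.45) for Loxl2 and 1.79 (0.628 to 4.96) for Col5a1. For Col5a2 and Thbs1, with 3 or fewer reads in a control, none is given.

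**Figure D4:**
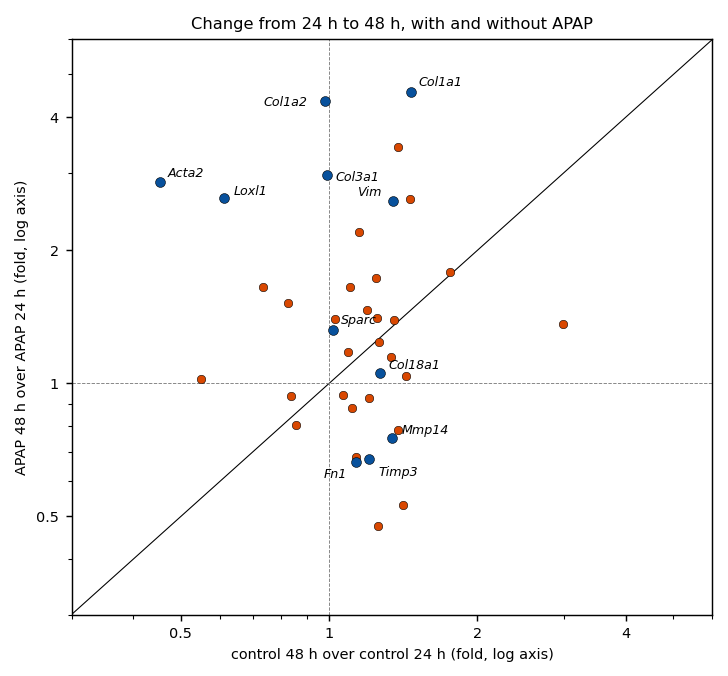
Fold of 48 h over 24 h in the APAP libraries against the same fold in the control libraries (log axes) for the 38 genes with more than 3 reads in every library and at least 20 in 1 of them; the diagonal marks an equal change. The 11 labelled genes (blue) are those whose counting interval of the ratio of folds leaves out 1; Col1a1, Col1a2, Col3a1, Loxl1, Acta2, Vim and Sparc lie above the diagonal and Fn1, Timp3, Mmp14 and Col18a1 below it.

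Other genes of the same pathways were taken from lists that were also chosen with earlier results of these data known. Of 18 further genes of TGF-beta signalling, 12 had enough reads at each time. Of these, 2 were called higher at 24 h (6.17% of all genes) and 1 lower (4.93%), and 3 were higher at 48 h (5.64%). Ctgf, a matricellular target of TGF-beta and YAP, had 7 reads at 24 h and 5 at 48 h in the control libraries and 118 at 24 h and 50 at 48 h after APAP, at folds of 12.6 (5.94 to 32.1) and 8.74 (3.51 to 28.1). Like Thbs1 and Tnc, it was highest in the APAP 24 h library. Smad7, the inhibitory SMAD, had 34 reads at 24 h and 30 at 48 h in the control libraries and 85 at 24 h and 126 at 48 h after APAP and was called at 48 h, at 3.67 (2.45 to 5.67); against the control of the other time it was also called at 24 h, at 2.25, as were the macrophage marker Cd68 at 24 h (2.17) and the cholangiocyte marker Sox9 at 48 h (2.0). Skil, a SMAD corepressor, was called at 24 h, at 2.03 (1.08 to 4.06), and Smad3, a signalling SMAD, at 48 h, at 2.07 (1.23 to 3.57). The receptor Tgfbr2 was lower at 24 h, at 0.488 (0.342 to 0.691). The calls of Smad3 and Tgfbr2 were lost against the control of the other time (1.19 and 1.01).

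Of the 4 PDGF ligands, 2 had enough reads at 24 h and 3 at 48 h. Pdgfc was lower at 24 h (4.93% of all genes), at 0.483 (0.261 to 0.875), and Pdgfd higher at 48 h (5.64%), at 2.33 (1.05 to 5.70). Both calls were lost against the control of the other time (0.662 and 1.04). In the collagen folding and processing list, 13 of 15 genes were in the table and 11 had enough reads at each time. None of the 11 was called higher, against 6.17% of all genes at 24 h and 5.64% at 48 h. At 24 h none was lower, against 4.93%. At 48 h 1, the prolyl hydroxylase subunit P4ha2, was lower, against 5.31%, at 0.496 (0.256 to 0.928) (0.738 against the control of the other time). Serpinh1, the collagen chaperone, had 41 reads at 24 h and 61 at 48 h in the control libraries and 59 at 24 h and 100 at 48 h after APAP, at folds of 1.08 (0.712 to 1.65) and 1.43 (1.03 to 2.00). Against the control of the other time it was called at 48 h (2.01), and P4ha1, another prolyl hydroxylase subunit, was lower at 24 h (0.493). Of 20 genes of the plasminogen system and further metalloproteinases, 6 had enough reads at 24 h and 7 at 48 h. Plaur, the urokinase receptor, was called higher at both times (6.17% and 5.64% of all genes), at 11.6 (2.95 to 100.1) and 10.1 (2.48 to 88.0), from 2 reads in each control. Adam8, a protease of leukocytes, was called higher at 48 h, at 20.1 (3.27 to 829). Mmp15 was lower at both times (4.93% and 5.31% of all genes), at 0.473 (0.353 to 0.633) and 0.460 (0.332 to 0.632), although at 24 h the control of the other time gave 0.541. None of the 13 matrix receptors was called, against 6.17% of all genes higher and 4.93% lower at 24 h and 5.64% and 5.31% at 48 h. Of the 9 with enough reads, Sdc4, a syndecan that binds fibronectin, came nearest, with 492 reads at 24 h and 801 at 48 h in the control libraries and 1291 at 24 h and 1192 at 48 h after APAP and folds of 1.97 (1.77 to 2.19) and 1.30 (1.19 to 1.43).

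The labelled tissue was whole liver, and Alb, the most abundant hepatocyte marker, had between 208729 and 254523 reads in the 4 libraries. The markers of cells that can express the members moved as follows, with the sums of each list given without members of the 47. The 10 further quiescent stellate markers summed to 122 and 121 RPM in the controls, 125 RPM at 24 h and 170.1 RPM at 48 h with APAP. With the size factors, 3 of the 10 had a log2 fold above 0 at 24 h, with a median of -0.12. At 48 h 6 of the 10 did, with a median of 0.53. Ecm1, the most abundant of them, had 250 reads at 24 h and 224 at 48 h in the control libraries and 322 at 24 h and 315 at 48 h after APAP. Of the 10, 6 had enough reads at 24 h and 7 at 48 h. Cygb, a globin of stellate cells, was called higher at 48 h (5.64% of all genes), at 2.04 (1.39 to 3.05). Colec11, a stellate lectin, was lower at 24 h (4.93%), at 0.495 (0.362 to 0.673). Both calls stood at the threshold and were lost against the control of the other time (1.92 and 0.511). Gfap had at most 1 read in a library. The 8 further myofibroblast or smooth muscle markers summed to 24.3 and 19.6 RPM in the controls and 46.5 and 81.6 RPM with APAP at 24 h and 48 h. At 24 h, 3 of the 8 had a log2 fold above 0, and the list's median was -0.12, so the higher sum there is that of Tagln. Tagln, an actin-binding protein of contractile cells and the most abundant, had 43 reads at 24 h and 40 at 48 h in the control libraries and 172 at 24 h and 218 at 48 h after APAP, at folds of 3.0 (2.13 to 4.29) and 4.77 (3.39 to 6.86). At 48 h Tpm2, a tropomyosin, and Postn, the periostin of activated fibroblasts, were also called, at 3.69 (2.19 to 6.56) and 3.94 (1.59 to 11.7). Of the 8, 3 had enough reads at 24 h, with 1 called higher (6.17% of all genes). At 48 h 4 had enough reads, with 3 called higher (5.64%). The smooth muscle markers Cnn1 and Myh11 were not called: Cnn1 was at 0 reads in both APAP libraries, and Myh11 had between 7 and 17 reads.

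Several macrophage and monocyte markers were higher as well. The 13 genes summed to 178 and 183 RPM in the controls and 288 and 490.5 RPM with APAP at 24 h and 48 h. Of 9 with enough reads, 4 were called at 24 h (Lyz2, Marco, Cd14 and Ly6c2; 6.17% of all genes), and of 12, 8 at 48 h (5.64%; these and Cd68, Ccr2, Gpnmb and Trem2), at folds of up to 19.9 (9.42 to 50.2) for Gpnmb at 48 h. Against the control of the other time, Gpnmb at 48 h came to 131 (23.2 to 5212). Lyz2, a lysozyme of myeloid cells and the most abundant, had 84 reads at 24 h and 107 at 48 h in the control libraries and 384 at 24 h and 659 at 48 h after APAP. Adgre1, which encodes F4/80, and Clec4f, a Kupffer cell lectin, were not called. Adgre1 had folds of 0.793 (0.531 to 1.19) and 1.14 (0.738 to 1.76), and Clec4f of 0.534 (0.441 to 0.645), with an interval under 1, and 0.985 (0.831 to 1.17). S100a8 and S100a9, neutrophil genes, were called higher at both times, against 6.17% and 5.64% of all genes. They were the only 2 of the 7 measured genes of their list with enough reads. The list summed to 3.29 and 3.66 RPM in the controls and 44.7 and 38.3 RPM with APAP. S100a8, the most abundant of these, had 5 reads at 24 h and 10 at 48 h in the control libraries and 139 at 24 h and 106 at 48 h after APAP.

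Of 10 endothelial markers, 9 had enough reads at each time. Lyve1 alone was called (6.17% of all genes higher at 24 h and 5.64% at 48 h), at 2.62 (1.62 to 4.42) and 2.04 (1.31 to 3.24). The list summed to 219, 248, 262 and 307 RPM in the order control 24 h, control 48 h, APAP 24 h and APAP 48 h. With the size factors, 5 and 4 of the 10 had a log2 fold above 0 at 24 h and 48 h, with medians near 0. Eng, the most abundant of these, is a TGF-beta coreceptor and had 276 reads at 24 h and 308 at 48 h in the control libraries and 336 at 24 h and 348 at 48 h after APAP. Of 6 measured cholangiocyte markers, Sox9 was called higher at 24 h (6.17% of all genes), at 3.97 (2.99 to 5.35), while Krt19 and Epcam had at most 13 and 10 reads in a library. In the same order of libraries this list, in which only Sox9 had enough reads, summed to 15.2, 19.8, 58.8 and 32.2 RPM. The 6 further portal fibroblast markers in the table, with Gas6 the most abundant, at 84, 109, 151 and 102 reads, had no call, and their sums were 19.5, 26, 28.3 and 26.1 RPM. Only Gas6 had enough reads. With the size factors, 1 of the 6 had a log2 fold above 0 at 24 h, and the median was -0.26. No mesothelial marker reached 20 reads, and the 6 summed to at most 3.70 RPM, in the control at 24 h. The 8 hepatocyte markers summed to 73956, 77110, 71172 and 88479 RPM. With the size factors, 1 of the 8 had a log2 fold above 0 at 48 h and the median was -0.26, so the higher sum at 48 h turns with the scaling. Of these genes, all with enough reads, Ass1, Glul and Cyp2f2 were lower at 24 h (4.93% of all genes). At 48 h Cyp2e1, Glul and Cyp2f2 were lower (5.31%). The part of these cells in the values of the collagens, Mmp12, Timp1, Spp1 and Vim was not tested.

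**Figure D5:**
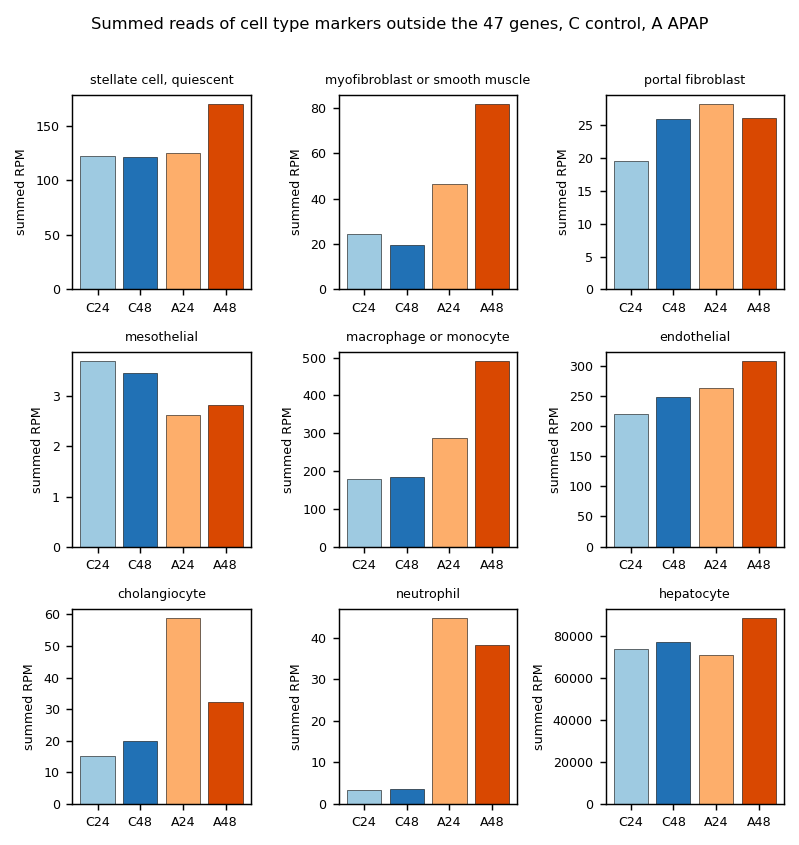
Summed reads scaled to library totals (RPM, linear axes from 0) of marker genes of 9 cell types, without those among the 47 genes, in the control (C) and APAP (A) libraries at 24 h and 48 h; each bar is 1 pooled library. The stellate, myofibroblast, macrophage, endothelial and hepatocyte sums are highest with APAP at 48 h. With the size factors, the median log2 fold at 48 h was -0.02 for endothelial and -0.26 for hepatocyte markers. The neutrophil sum, the portal fibroblast sum (28.3 RPM against 19.5 RPM in its control) and the cholangiocyte sum, in which Sox9 takes most reads, are highest with APAP at 24 h. The mesothelial sum is highest in the control at 24 h.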

How the data were processed

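Liver RNA of 4 pools was measured, 1 library per group. The authors made 3′ libraries from DNase-treated RNA, dropped duplicates by their molecular identifiers, used cutadapt and a script for quality and poly(A) trimming, and mapped to mm10. They deposited raw HTSeq counts for each gene. Tool versions are not given in the sources used here. Antisense entries are listed apart, so strand was used. The deposited table also holds columns made by the authors with scaled counts, log2 ratios, p-values and false discovery rates, none of which was used.

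Size factors (DESeq2 1.42.0, R 4.3.3, median of ratios; edgeR 4.0.16 for TMM) were fitted on the whole table. Folds and exact Clopper-Pearson intervals were computed in Python 3.11.15 (scipy 1.17.1), and plots in matplotlib 3.10.9. Ratios of folds used the conditional exact interval of the 4 counts. The code was tested on simulated data. The members and lists were chosen with earlier results of these data known. Genes named were all members, the called genes of each other list (at most 5) and, of marker lists, the most abundant and the called genes; Sdc4, Serpinh1, P4ha1, Adgre1, Clec4f, Gfap, Cnn1, Myh11, Krt19 and Epcam were named after their values were seen. Hepatocyte genes are named only. Positions are from GENCODE mouse release 21 (GRCm38), and 3′ ends were compared with blastn 2.17.0 (at least 95% identity over 100 bases). Reads of Col5a2, Lamb3, Lamc1 and Spp1 share an entry with an overlapping gene. Alternatives were other scalings, read minimums, fold sizes and controls. A floor of 3 reads was 0.617, 0.578, 0.526 and 0.608 RPM (control 24 h, control 48 h, APAP 24 h, APAP 48 h). A gene of the TGF-beta list is not reported here.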

Additional observations from a re-analysis of the deposited data

Results flagged for a closer look

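For 11 of the 38 genes with enough reads, the fold of APAP over control differed between 48 h and 24 h by more than counting error, upward in 7 (9.3% of all 11208 such genes) and downward in 4 (11.6%). The fold at 48 h over that at 24 h was 6.28 (2.94 to 13.9) for Acta2, 4.45 (2.09 to 9.43) for Col1a2, 4.28 (1.66 to 11.1) for Loxl1, 3.12 (1.68 to 5.70) for Col1a1, 2.99 (1.63 to 5.48) for Col3a1, 1.91 (1.30 to 2.81) for Vim and 1.30 (1.07 to 1.57) for Sparc. It was 0.835 (0.761 to 0.917) for Col18a1, 0.585 (0.541 to 0.633) for Fn1, 0.561 (0.420 to 0.750) for Mmp14 and 0.558 (0.318 to 0.978) for Timp3. Each value compares 4 pools, 1 per group, so the interval leaves out the differences between mice. The control pools, 48 h over 24 h, also differed beyond counting error for Acta2, at 0.454 (0.215 to 0.911), Mmp14, at 1.34 (1.07 to 1.69), Col18a1, at 1.27 (1.19 to 1.35), and Fn1, at 1.13 (1.06 to 1.21), and gave 0.613 (0.280 to 1.29) for Loxl1.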

How the results depend on the processing

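No analysis paired by time was run, and with 1 library per group no replicate could be left out. Library totals in place of size factors shifted the median of all genes by 0.18 at 24 h and 0.26 at 48 h, put the members' median at 0.74 and 0.83, and left no member called lower at either time (3.14% and 3.09% of all genes). They also took the members called higher to 15 at 24 h (9.05%), by Col4a2 (2.03), Lamc1 (2.01), Spp1 (2.16), Mmp14 (2.13) and Vim (2.25), and to 19 at 48 h (9.65%), by Nid1 (2.28), Eln (2.31), Sparc (2.08) and Pdgfrb (2.28). With at least 50 reads those medians were 0.82 and 0.90, 5 members were higher at 24 h (3.88% of all genes), none was lower at 24 h or 48 h (4.67% and 5.19%), 7 were higher (1.08%) and 1 lower (1.93%) between the APAP libraries, and none was lower between the controls (0.594%). With at least 10 reads or no minimum, 2 members were lower at 48 h (6.42% and 4.21% of all genes), 4 lower between the APAP libraries (4.36% and 3.01%) and 1 higher between the controls (3.77% and 2.53%). At 5-fold, 4 were higher at 24 h (1.18%) and 4 at 48 h (0.646%), and 0 in the comparisons left: lower at 24 h and 48 h (0.643% and 0.84%), higher and lower between the APAP libraries (0.0629% and 0.539%), and lower between the controls (0.0788%). At 1.5-fold, 19 were higher (14.6% of all genes) and 5 lower (13.1%) at 24 h, 4 lower at 48 h (14%), 4 lower between the APAP libraries (9.21%), and 1 higher (7.07%) and 2 lower (6.52%) between the controls. The sum of both controls gave 3 lower at 24 h and 2 at 48 h (6.11% and 5.46%), and the control of the other time 2 and 0 (6.06% and 4.47%); with the latter, 8 of the 10 members higher at 24 h and 13 of the 15 at 48 h were called again (all but Col4a1 and Fn1, and Col4a2 and Loxl2), while Col4a2 (2.14) and Loxl2 (3.18) at 24 h and Lamb1 (2.89), Nid1 (2.14) and Pdgfrb (2.26) at 48 h were called higher in addition, and the 2 lower at 24 h were Col14a1 (0.350) and Col15a1 (0.409). The other 73 values for counts and medians lay within the limits set for a stable value, as did 694 folds of single genes against 35 that moved, and no member's call turned to the opposite direction. Among members not called, the control of the other time turned the direction of some, such as Col14a1 at 48 h (1.10) and Lamb1 at 24 h (0.711). For the pathway and marker genes, the control of the other time was tried after seeing the data. The cause of these shifts was not tested. Counts under 20 reads limit Vcan, Lox, Mmp2, Mmp13 and Pdgfra.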
